A study of Mus musculus with 12 samples.

Results

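The comparison described here sets perigonadal white fat of CL-treated Cdk7 knockout mice against that of CL-treated wild-type littermates. It rests on 6 of the 12 libraries of the series, chosen by their titles: 3 titled ko-CL (ko CL below) and 3 titled wt-CL (wt CL). Each library is a pool of RNA from 2 mice of the same genotype and treatment, with 250 ng from each, so the values of single mice cannot be recovered and p-values measure the spread between pools. All mice were C57BL/6, 9 weeks old, kept on standard chow and killed at zeitgeber time 9. Both groups had been injected with CL for 7 days; the labels give only this short name, which in fat research stands for an agonist of the beta-3 adrenergic receptor. The knockout is described as specific to adipose tissue. The line that drives the deletion is not given in the sources used here, and cells outside that driver's reach would keep the gene. The other 6 libraries, wild type and knockout under saline, are used below only to set the same genotype difference beside that under CL.

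Cdk7 is the kinase of the CDK-activating complex, which it forms with cyclin H (Ccnh) and Mat1 (Mnat1). As part of the general factor TFIIH it phosphorylates the tail of RNA polymerase II at promoters, and it also activates the kinases of the cell cycle. In white fat, a beta-3 agonist raises cAMP in adipocytes, which starts lipolysis and, over days, a thermogenic programme with new mitochondria, fatty acid oxidation and fatty acid resynthesis. The fatty acids released and the adipocytes that are lost under such stimulation draw macrophages, which take up lipid and dead cells.

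A separate genotype label is given for each sample, but it runs with treatment and goes against 3 of these 6 titles, so Cdk7 itself (ENSMUSG00000069089, GRCm38 chromosome 13, 100702631 to 100730939, minus strand) was read first as a check of the titles. Its level, in CPM (read counts relative to the library total, scaled by TMM, edgeR's trimmed mean of M values), was 32.2, 30.4 and 35.4 in the wt CL libraries and 23.6, 19.5 and 18.1 in the ko CL libraries. Every library titled knockout lay below every library titled wild type. The log2 fold change was -0.68 ± 0.09 (SE, n = 3 against 3, adjusted p = 3.64e-05), and the exact permutation test gave a two-sided p of 0.1, the smallest that 3 against 3 allows. Under saline the same difference was -1.38, and the difference between both effects was 0.70 (adjusted p = 0.000919). The counts cover the whole gene, so they do not show which exons were lost.

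Gene counts ran from 21892817 to 27774646 per CL library, with 20239 to 22001 genes detected. The groups differed in what filled the libraries: transcripts of the mitochondrial genome took 9.50% to 10.35% of gene counts in wt CL and 3.52% to 4.37% in ko CL, and the 10 most abundant genes took 23.5% to 24.4% and 8.97% to 10.7%. TMM factors, which correct for such shifts, were 0.803 to 0.841 in wt CL and 1.06 to 1.08 in ko CL. The first principal component held 85.8% of the variance between the 6 libraries and separated the genotypes. The second held 5.3% and set ko CL 1 and ko CL 2 apart from each other. Values that rest on either library are given below with the values of each.

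Across 16554 genes tested, the genotype difference was called for 9408, or 56.8%, at an adjusted p of 0.05. Of these, 4561 genes (27.6% of those tested) were higher in ko CL and 4847 (29.3%) lower, and the median log2 fold change over all genes tested was 0.003. The counts of list members given below stand beside these shares. With a change of at least 2-fold, 2008 genes (12.1%) were higher and 1378 (8.32%) lower. The libraries of the groups did not overlap for 5115 genes (30.9%) with ko CL above and 5408 (32.7%) with ko CL below. The split depended on the scaling: scaled by library size alone, the median rose to 0.39, with 8667 genes higher and 2237 lower, so that 79.5% of the calls were increases against 48.5% with TMM. A decrease smaller than about that shift therefore has no direction that holds under both scalings. All values below are with TMM, and the sentences that name a list or gene say where library size alone turned its direction.

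**Figure D1:**
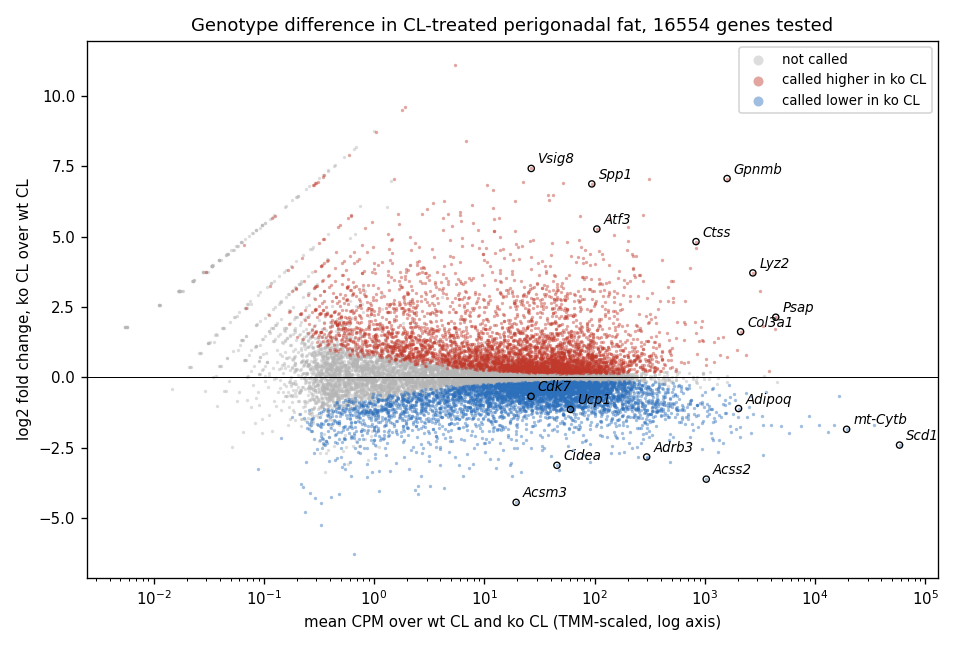
Log2 fold change of ko CL over wt CL against mean CPM (log axis) for all genes tested, red for called higher, blue for called lower and grey for not called. The diagonal streaks at the left are genes with 0 or few counts in wt CL. Gpnmb, Ctss, Lyz2 and Psap stand out among the abundant increases, and Scd1 and mt-Cytb are the labelled decreases at the highest levels.

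The share of genes called lower grew with their level, from 10.4% of those under 1 CPM to 59.2% of the 451 at or above 300 CPM, while the share called higher stayed between 26.8% and 31.3% from 3 CPM up. The losses in absolute level were concentrated in lipogenic and mitochondrial transcripts. Scd1, the desaturase that makes oleate, fell from 98200 ± 5040 to 18470 ± 5120 CPM (SD, n = 3), and mt-Co1 from 52360 to 16170 CPM. The other 8 of the 10 largest losses were mt-Cytb, Car3, Fasn, Fabp4, Lpl, mt-Nd5, mt-Nd1 and Acly. The 10 largest gains were Psap, Ctsl, Lyz2, Ctsb, Selenop, Gpnmb, Col3a1, Ctss, Mpeg1 and Ftl1, among them the lysosomal proteins Psap, Ctsl, Ctsb and Ctss. Psap, the precursor of the saposins that help break down sphingolipids, was at 1633 ± 71 CPM in wt CL and 7160 ± 1010 CPM in ko CL.

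Adipocyte and macrophage transcripts moved in opposite directions, and both shifts stand beside every result that follows. Of 28 adipocyte genes, 25 fell and none rose (median -0.99), and their summed level was 81700 to 86540 CPM in wt CL and 30950 to 40330 CPM in ko CL. All 23 general macrophage markers tested rose (median 3.35), and their sum was 1038 to 1203 CPM in wt CL and 11720 to 16590 CPM in ko CL. In bulk tissue, fewer cells of a type and less RNA per cell cannot be told apart. How far the make-up of the tissue carries the other differences was not tested. Within ko CL, library 1 had the lowest adipocyte sum and the highest macrophage sum, and without it the counts of genes called higher and lower were 3927 and 4528.

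**Figure D2:**
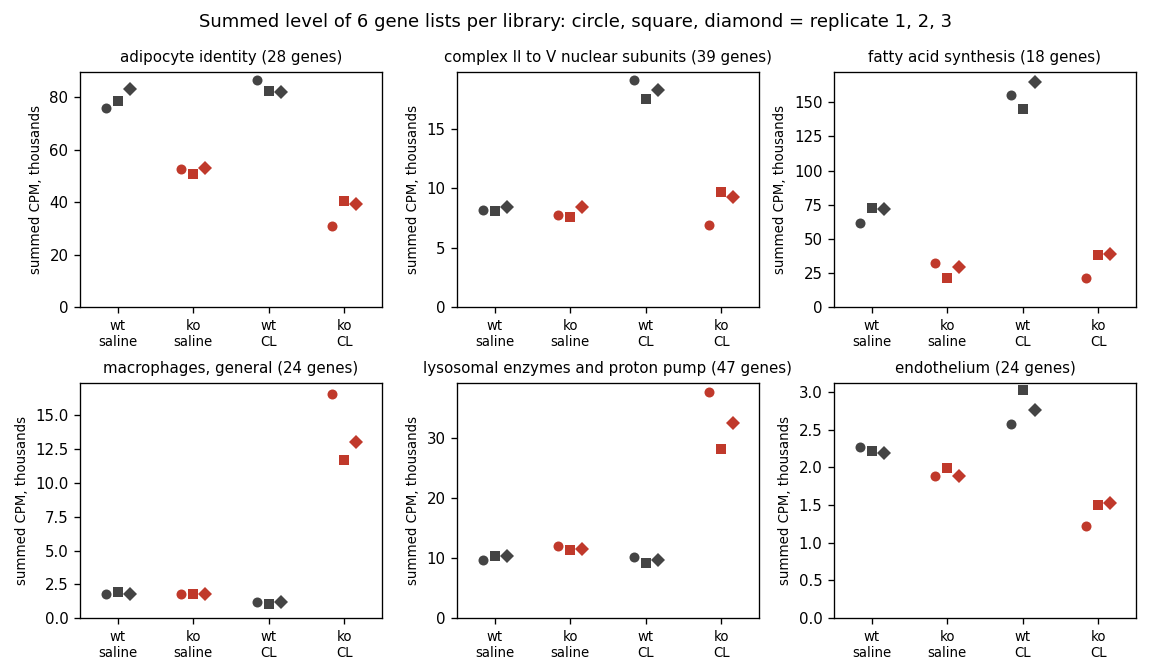
Summed CPM (axes from 0) of 6 gene lists in each of the 12 libraries, dark grey for wild type and red for knockout, with circle, square and diamond for replicates 1, 2 and 3. In ko CL the general macrophage markers sum to 11720 to 16590 CPM against 1038 to 1203 in wt CL, and the adipocyte list to 30950 to 40330 against 81700 to 86540.

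The partners of Cdk7 did not fall with it as a group. Among 10 genes of the CDK-activating kinase and the TFIIH core, 4 were called lower and 2 higher (median -0.10, which became 0.28 with library size alone). Cdk7 itself was in this list and among the 4 called lower. Ccnh, the cyclin partner, was at 25.4 ± 1.10 and 27.0 ± 1.01 CPM and was not called. Gtf2h5, the smallest TFIIH subunit, fell from 103 ± 6.42 to 62.2 ± 3.76 CPM (log2 fold change -0.73 ± 0.07, adjusted p = 7.59e-07), whereas under saline it was called higher by 0.22. Mnat1, the assembly factor, and Gtf2h3 were called lower by TMM at -0.35 and -0.33, but were at 0.04 and 0.06 with library size alone. Ercc2, a helicase of TFIIH, was called higher by 0.36. Its fellow helicase Ercc3 was at 0.17, a call that was lost without wt CL 2, ko CL 1 or ko CL 3 (adjusted p = 0.0559 to 0.0774). The Ercc3 call was also lost with upper-quartile factors (edgeR adjusted p = 0.0526) and with no filter (edgeR adjusted p = 0.0578).

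The other transcriptional kinases and cyclins did not move as a group. Of 14 kinases, cyclins and regulators, 4 rose and 1 was called lower (median -0.02, or 0.36 with library size alone). Among all genes tested, 27.6% were higher and 29.3% lower. Cdk9, the kinase that releases paused polymerase, rose from 45.03 ± 2.21 to 75.8 ± 6.55 CPM (0.75 ± 0.08, adjusted p = 6.49e-06). Cdk19, a kinase of the Mediator module, rose by 0.76, and neither Cdk9 nor Cdk19 was called under saline. Cdk12 and Cdk13, which act during elongation, were not called (-0.13 and -0.06), and both turned positive with library size alone (0.25 and 0.32). Polr2a, the catalytic subunit of RNA polymerase II, rose by 0.79 ± 0.09 from 145 to 250 CPM and was also higher under saline, by 1.04. The list of 12 polymerase II subunits had 1 member called higher and 3 lower (median -0.06, or 0.33 with library size alone, and -0.125 to -0.015 when 1 CL library was left out).

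The thermogenic programme was lower in ko CL, and its size differed between knockout libraries. Of 23 thermogenic genes tested, 13 fell, 1 rose and 9 were not called (median -1.15, or -0.70 without ko CL 1). Ucp1, the uncoupling protein that dissipates the proton gradient as heat, was at 94.6, 78.5 and 76.6 CPM in wt CL and at 10.2, 51.9 and 51.0 CPM in ko CL. The groups did not overlap, and ko CL 1 lay far below its fellow libraries. The log2 fold change of Ucp1 was -1.15 ± 0.40 (adjusted p = 0.0267). That call was lost with library size alone (-0.76, adjusted p = 0.113), with DESeq2 (-1.13, adjusted p = 0.201) and with the 6 CL libraries alone (adjusted p = 0.0696). It was also lost without wt CL 1 (adjusted p = 0.0782) and without wt CL 2 (adjusted p = 0.0507). Without ko CL 1 the log2 fold change of Ucp1 was -0.70 (adjusted p = 0.0013).

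Cidea, a lipid droplet protein of brown and beige fat, was at 91.8, 68.2 and 85.4 CPM in wt CL and 3.12, 15.3 and 9.57 CPM in ko CL, a log2 fold change of -3.13 ± 0.41 (adjusted p = 2.27e-05). Cox8b (-2.58 ± 0.37), Elovl3 (-2.22 ± 0.35), Dio2 (-1.69 ± 0.30), Otop1 (-1.87) and Cox7a1 (-1.15 ± 0.27) fell as well; Dio2 makes active thyroid hormone within the cell. In Cidea, Cox8b, Elovl3, Dio2, Otop1 and Cox7a1 the lowest value was again in ko CL 1. Nrg4, a secreted neuregulin, fell from 237 to 61.6 CPM on average. The exception was Gatm, the first enzyme of creatine synthesis, which rose from 7.48 ± 0.93 to 65.8 ± 14.4 CPM (3.14 ± 0.16, adjusted p = 5.41e-09). Prdm16, a determinant of the beige lineage, was called lower at -0.34 (adjusted p = 0.0473), but was at 0.04 with library size alone. The call was lost when any of wt CL 1, wt CL 2, wt CL 3, ko CL 1 or ko CL 3 was left out (adjusted p = 0.0583 to 0.169). It was also lost with relative log expression factors (edgeR adjusted p = 0.0557), no filter (0.0811), the 6 CL libraries alone (0.0834) and DESeq2 (DESeq2 adjusted p = 0.0681). Fgf21 was near the detection limit in all 6 libraries, at 0.59 and 0.63 CPM on average.

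The regulators of mitochondrial and oxidative genes were lower to unequal degrees. Of 24 genes of the PGC-1, ERR and PPAR group, 14 were called lower and 4 higher (median -0.43, or -0.05 with library size alone). Ppargc1a, the coactivator PGC-1alpha, was at 19.9, 20.2 and 19.3 CPM in wt CL and 4.92, 7.58 and 9.83 CPM in ko CL (-1.42 ± 0.18, adjusted p = 1.66e-05). Esrrg, an estrogen-related receptor, fell from 8.05, 9.35 and 8.09 CPM to 1.73, 1.64 and 1.90 CPM (-2.28 ± 0.24, adjusted p = 3.75e-06). Its paralogue Esrra was not called, at 40.4 ± 4.66 and 35.3 ± 2.34 CPM, a difference that turned positive with library size alone (0.19). Ppara, the fatty acid receptor of oxidative tissues, fell by 2.13 and Rxrg by 1.48. Pparg and Cebpa, the main transcription factors of the adipocyte, fell by 0.74 and 0.85. Pprc1, a coactivator related to PGC-1alpha, was called higher by 0.61.

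**Figure D3:**
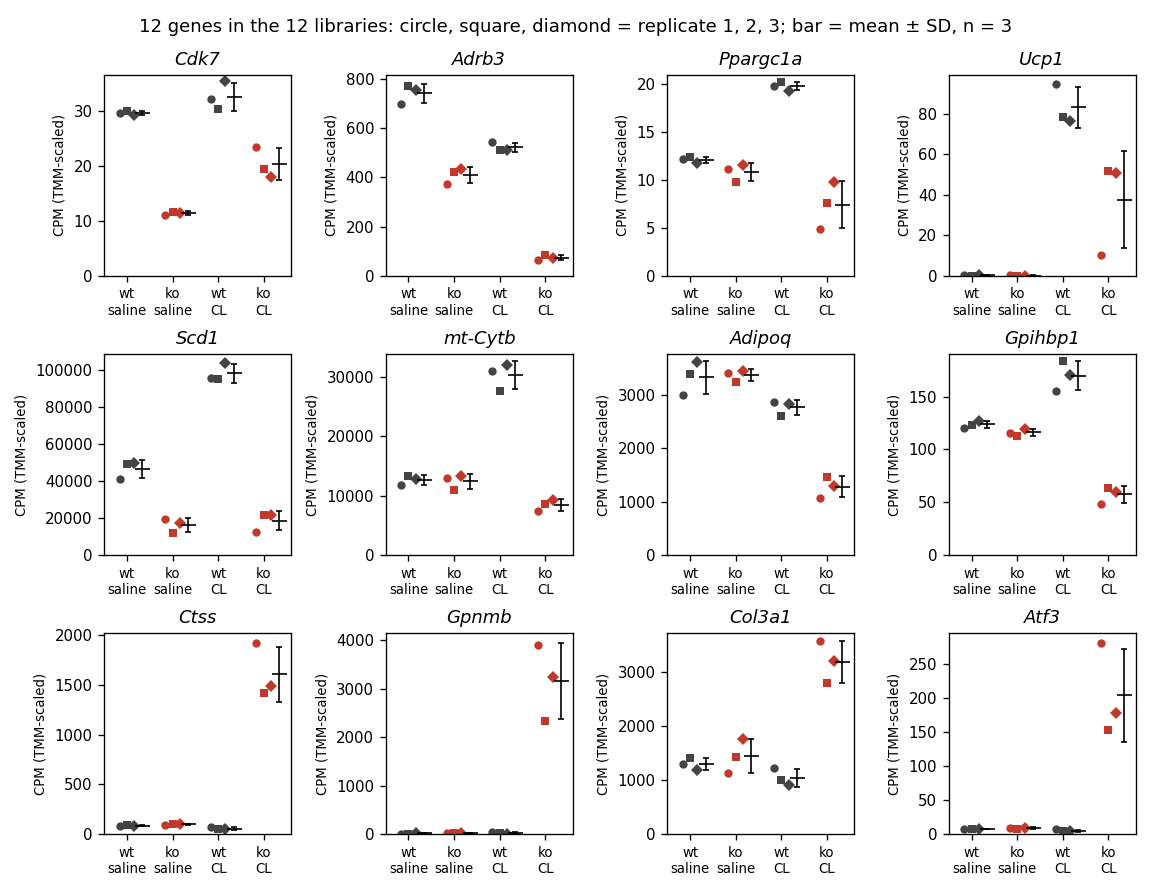
CPM (TMM-scaled, axes from 0) of 12 genes in the 12 libraries, dark grey for wild type and red for knockout, with circle, square and diamond for replicates 1, 2 and 3, with the mean ± SD of each group (n = 3) beside the points. Adrb3 is at 62.7 to 82.6 CPM in ko CL against 511 to 541 in wt CL, and Ctss at 1414 to 1923 against 48.3 to 68.7.

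The receptor that CL acts on was itself low in ko CL. Adrb3, the beta-3 adrenergic receptor, was at 541, 511 and 511 CPM in wt CL and 62.7, 82.6 and 73.8 CPM in ko CL. All 3 knockout libraries lay below every other library of the series. The log2 fold change was -2.83 ± 0.10 (adjusted p = 7.75e-10), compared with -0.86 under saline, and the difference of -1.98 between both was called (adjusted p = 3.14e-07). Adrb1, the beta-1 receptor, fell by 1.62.

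Downstream of the receptor, members of the adrenergic and cAMP list went both ways: of 29, 15 were called lower and 8 higher (median -0.28, or 0.10 with library size alone). The Gi-coupled receptors for adenosine and prostaglandin E2, Adora1 and Ptger3, which restrain lipolysis in adipocytes, fell by 2.75 and 2.33. Pde3b, the cAMP phosphodiesterase that insulin activates, fell from 421 ± 15.8 to 140 ± 15.5 CPM. Prkaca and Prkar2b, subunits of protein kinase A, fell by 0.92 and 1.16. Adcy3, an adenylyl cyclase, rose from 33.5 ± 2.53 to 95.5 ± 17.4 CPM, and Arrb2, a beta-arrestin, by 1.43. Adcy3 was lower in the knockout under saline, by 0.53, and the difference of 2.04 between the effects was called (adjusted p = 6.43e-07).

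Promoter windows are shown for 2 genes that were higher, Vsig8 and Spp1, and 2 that were lower, Esrrg and Dio2. They had the largest changes in each direction among genes that had a promoter entry, held a searched motif and belonged to the 15 largest increases, the 15 largest decreases or a set of 45 genes chosen by name; other genes described here, such as Rbp4, changed more than Dio2 but are in none of these sets. Each window is the 250 bases before the start of the gene in RefSeq (GRCm38.p6), printed 5′ to 3′ on the gene's strand. Capitals mark the cAMP response element TGACGTCA, which reads the same on both strands, or TATAAA, the sequence of the TATA box. TATAAA is read TTTATA in Esrrg because it lies on the opposite strand. The windows are Vsig8 at chr1:172559656-172559905 (plus strand), Spp1 at chr5:104434861-104435110 (plus strand), Esrrg at chr1:187608756-187609005 (plus strand) and Dio2 at chr12:90739039-90739288 (minus strand). The RefSeq start used for Vsig8 lies inside the gene as GENCODE M21 draws it, from 172555938 to 172563717.
Vsig8 promoter: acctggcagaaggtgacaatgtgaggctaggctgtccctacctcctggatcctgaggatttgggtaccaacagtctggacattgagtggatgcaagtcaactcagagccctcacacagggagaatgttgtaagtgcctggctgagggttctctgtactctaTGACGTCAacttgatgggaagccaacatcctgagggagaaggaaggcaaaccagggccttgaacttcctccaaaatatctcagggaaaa
Spp1 promoter: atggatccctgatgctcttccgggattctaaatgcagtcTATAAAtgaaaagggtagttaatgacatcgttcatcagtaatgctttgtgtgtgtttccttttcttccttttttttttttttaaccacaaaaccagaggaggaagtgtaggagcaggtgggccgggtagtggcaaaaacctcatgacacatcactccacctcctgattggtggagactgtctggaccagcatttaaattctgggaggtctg
Esrrg promoter: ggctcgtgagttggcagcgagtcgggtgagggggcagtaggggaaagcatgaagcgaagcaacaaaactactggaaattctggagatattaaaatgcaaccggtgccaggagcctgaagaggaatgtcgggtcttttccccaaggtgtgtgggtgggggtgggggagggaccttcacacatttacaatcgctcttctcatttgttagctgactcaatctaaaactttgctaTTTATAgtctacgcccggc
Dio2 promoter: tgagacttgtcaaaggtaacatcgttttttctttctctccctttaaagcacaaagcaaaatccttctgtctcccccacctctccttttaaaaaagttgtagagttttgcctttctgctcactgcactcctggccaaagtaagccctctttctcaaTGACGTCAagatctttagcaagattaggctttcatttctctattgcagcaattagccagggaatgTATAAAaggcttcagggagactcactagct

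In these windows the cAMP response element began 89 bases before the start in Vsig8 and 95 bases before it in Dio2, where TATAAA followed at 30 bases. TATAAA began 211 bases before the start in Spp1 and, on the opposite strand, 19 bases before it in Esrrg. Over all 12160 tested genes with a promoter entry, TGACGTCA occurred on either strand in 2.77%. It occurred in 2.06% of promoters of genes at least 2-fold higher and in 1.95% of those at least 2-fold lower. TATAAA occurred in 8.73%, 10.7% and 10.3% of the same sets. The palindromic E-box TCACGTGA was in 1.56% of all windows, 1.21% of the higher and 0.326% of the lower set, and in 5 of 33 windows of lysosomal genes (Atp6v1a, Ctsa, Ctsd, Gla and Mcoln1). The nuclear receptor element TCAAGGTCA was in 0.288%, 0.498% and 0.326%. A direct repeat of nuclear receptor half-sites spaced by 1 base was in 0.0576% of all windows, or 7 genes. Each of the 61 gene lists was searched for all 5 motifs, and only the lysosomal count of TCACGTGA is given here. That count was not tested, and Mcoln1 was called neither higher nor lower. These are matches of letters and say nothing of binding.

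Nearly every measured gene of the respiratory chain was lower in ko CL. All 35 nuclear subunits of complex I tested fell (median -0.86), with log2 fold changes from -1.30 to -0.44. Of 38 subunits of complexes II to V, 36 fell (median -0.93), and Atp5g1 and Atp5g2 were not called (0.17 and -0.13, the latter 0.25 with library size alone). Sdha, the flavoprotein of complex II, was at 1518, 1476 and 1520 CPM in wt CL and 469, 655 and 629 CPM in ko CL (-1.37 ± 0.11, adjusted p = 2.85e-07). Atp5b, the catalytic subunit of ATP synthase, fell from 4781 ± 110 to 1856 ± 357 CPM. All 7 mitochondrially encoded mRNAs tested fell (median -1.72). The other 6 were too low to test, with mt-Co2, mt-Co3 and mt-Atp6 at 1 or 2 counts over all 12 libraries. Cox4i1, a subunit of complex IV, and the macrophage integrin Itgam are likewise listed at 0 counts in all libraries, although both are known to be expressed in fat tissue. Whether the counting step left such genes out was not tested. mt-Cytb, the cytochrome b of complex III, was at 31050, 27610 and 32080 CPM in wt CL and 7354, 8537 and 9263 CPM in ko CL. Reads that match more than 1 place were left unassigned and made up 11.98% to 12.96% of wt CL and 7.18% to 7.93% of ko CL libraries, so levels of mitochondrial genes with nuclear copies are uncertain.

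The summed CPM of complexes II to V was 17510 to 19100 in wt CL and 6944 to 9698 in ko CL, and 7603 to 8413 in the knockout under saline. The saline knockout libraries lay within the range of the ko CL libraries. No member of this list was called under saline, and for 31 of 38 the genotype effect under CL was more negative than under saline.

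Other mitochondrial machinery was lower by smaller amounts. Of 40 mitochondrial ribosomal proteins 36 were called lower (median -0.47, or -0.08 and 11 calls with library size alone). Of 22 import proteins and chaperones 19 fell (median -0.64, or -0.26 with library size alone), among them the chaperone Hspa9 (-0.98 ± 0.12) and the protease Lonp1 (-0.81 ± 0.08). The proteasome, outside mitochondria, followed the same course, with 29 of 31 subunits called lower (median -0.42), but only 6 were called lower with library size alone (median -0.03). Cytosolic ribosomal proteins went the opposite way: 35 of 38 rose (median 0.48), Rpl10a by 0.98 and Rpl3 by 0.60. Many of these have near-identical pseudogenes, so their counts are uncertain where reads were left unassigned.

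The pathways that feed the chain were lower as well. All 26 genes of the TCA cycle and pyruvate use fell (median -1.13). Pdk4, the kinase that shuts pyruvate dehydrogenase, fell most (-2.43 ± 0.11, from 244 to 45.1 CPM), and Idh3g, a subunit of isocitrate dehydrogenase, fell by 1.40. Of 19 genes that break down branched-chain amino acids, 18 fell (median -1.32), and 13 of these were below all other 9 libraries of the series, compared with 15.2% of all genes tested. Pccb, a subunit of propionyl-CoA carboxylase, fell from 434 ± 7.56 to 139 ± 26.9 CPM. Mut, the methylmalonyl-CoA mutase, fell by 1.12 under CL and was higher by 0.50 under saline. Of 24 fatty acid oxidation genes, 23 fell (median -1.19), with the largest changes in the peroxisomal enzymes Acaa1b (-2.50 ± 0.14) and Ehhadh (-2.16 ± 0.15). The exception was Cpt1a, which admits fatty acids to mitochondria and is the liver isoform, at 110, 117 and 118 CPM in wt CL and 244, 153 and 191 CPM in ko CL (0.77 ± 0.14).

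Fatty acid synthesis had the lowest median of the lists with at least 10 members tested, -1.94, with 16 of 18 genes lower and none higher. Scd1 was at 95560, 95030 and 104000 CPM in wt CL and 12560, 21350 and 21490 CPM in ko CL, a log2 fold change of -2.41 ± 0.22 (adjusted p = 1.03e-06). Fasn, the fatty acid synthase, was at 23470, 19020 and 19490 CPM and at 3313, 6619 and 6329 CPM (-1.93 ± 0.23). No wt CL library overlapped a ko CL library for either gene, and ko CL 1 was lowest for both. Acss2, which makes acetyl-CoA from acetate, fell 12.3-fold, from 1906 ± 308 to 155 ± 52.4 CPM. Me1 (-2.76), Elovl6 (-2.55), the citrate carrier Slc25a1 (-2.22) and Acly (-1.98) fell too. This list was also lower in the knockout under saline, with 10 of 18 called lower, compared with 6.45% of all genes tested, and a median of -0.56, and 14 of 18 had a more negative effect under CL. Fads1 and Fads2, the desaturases of polyunsaturated fatty acids, were not called (0.23 and -0.40).

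Glycerol supply and triglyceride assembly followed. Of 17 genes 16 fell (median -1.19): Pck1, which makes glycerol phosphate from pyruvate in fat, was at 2730, 2117 and 1897 CPM in wt CL and 391, 382 and 306 CPM in ko CL (-2.65 ± 0.16, adjusted p = 2.82e-08). Mogat1 fell by 2.52, Agpat2 by 2.23 and Dgat2, the last step of triglyceride synthesis, by 1.84. Glycerol kinase, Gk, was the member not called, at 48.0 ± 0.89 and 43.1 ± 11.7 CPM, a difference that turned positive with library size alone (0.23). Under saline it was higher in the knockout by 1.19.

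Lipolysis genes were lower as well. Of 20 lipase and droplet genes 16 fell and 2 rose (median -1.19). The lipases for triglyceride, diglyceride and monoglyceride, Pnpla2, Lipe and Mgll, fell by 1.27 ± 0.13, 1.46 ± 0.16 and 0.94 ± 0.08. Of the perilipins, Plin4, Plin5 and Plin1 fell by 1.72, 1.54 and 1.32, Plin2 was not called (-0.03, or 0.36 with library size alone) and Plin3 was called higher by 0.36. Among 15 genes of lipoprotein lipolysis and fatty acid uptake, 12 were called lower and 2 higher (median -0.94). Fabp4, the fatty acid carrier of adipocytes, was at 17120, 15850 and 16550 CPM in wt CL and 3688, 5928 and 5590 CPM in ko CL. Lpl, the lipoprotein lipase, fell by 0.65 and Slc27a1, a fatty acid transporter, by 1.47, while Cd36 was not called and turned positive with library size alone (0.23). Lrp1, a scavenger receptor, rose from 418 ± 63.8 to 1427 ± 277 CPM.

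Cholesterol synthesis and cholesterol handling parted. Of 23 synthesis genes, 20 were lower (median -1.53). Insig1, the sterol sensor that holds back SREBP, was at 795, 865 and 915 CPM in wt CL and 86.3, 105 and 127 CPM in ko CL (-3.02 ± 0.14, adjusted p = 2.88e-09). Cyp51, Lss and Pmvk fell by 2.67, 2.12 and 2.16. Of 14 genes for cholesterol efflux and uptake, 8 rose and 3 were called lower (median 0.73): Soat1, which esterifies cholesterol, rose from 11.8 ± 1.95 to 190 ± 42.5 CPM, Msr1 by 3.10, Abcg1 by 2.88 and Lipa, the lysosomal acid lipase, by 2.70.

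Carbohydrate genes were moderately lower. Of 24 glucose uptake and glycolysis genes, 17 were called lower and 2 higher (median -0.66). Slc2a4, the insulin-regulated glucose transporter, fell by 1.07, and Slc2a1, the basal transporter, rose by 0.58. Of the hexokinases, Hk2 was called lower (-0.64) and Hk1 higher (0.50). The call of Hk2 was lost with library size alone (-0.26, adjusted p = 0.215), and without ko CL 1 it was at -0.43. Pfkfb3, which makes the activator of phosphofructokinase, fell from 1170 ± 87.1 to 373 ± 40.9 CPM. Of 15 glycogen genes 11 were called lower and 2 higher (median -0.68), with Gys2 at -1.67 ± 0.26.

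Genes that mark adipocytes fell without exception among those called, but by very different amounts. Rbp4, the retinol carrier, was at 778, 761 and 800 CPM in wt CL and 156, 161 and 176 CPM in ko CL (-2.25 ± 0.08, adjusted p = 7.75e-10). Adipoq, the hormone adiponectin, was at 2859, 2613 and 2829 CPM and at 1073, 1465 and 1300 CPM (-1.11 ± 0.11), and under saline its log2 fold change was 0.02 and not called. Lep, the satiety hormone leptin, fell from 605, 574 and 621 CPM to 388, 316 and 381 CPM (-0.73 ± 0.11). Retn and Cfd, the secreted resistin and adipsin, fell by 2.17 and 1.99, and both were lower under saline too. Nnat and Sfrp5 were not called (0.48 and 0.69). Of the 28 genes, 13 were called lower under saline, compared with 6.45% of all genes tested, and 16 were in ko CL below all other 9 libraries, compared with 15.2%.

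Among 19 adipokines 9 were called lower and 3 higher (median -0.32, or 0.06 with library size alone). The 3 increases were Metrnl, which rose from 11.6 to 76.9 CPM, Cxcl14 (1.83) and Tnf, which rose from 1.49 ± 0.33 to 3.79 ± 1.02 CPM. Of 24 insulin and IGF signalling genes 14 were called lower and 7 higher (median -0.39, or -0.01 with library size alone). The insulin receptor Insr fell by 0.83 ± 0.07 and Akt2, the isoform that serves glucose uptake, by 0.87, while Akt1 and the factor Foxo3 rose by 0.80 and 1.51.

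The general macrophage markers rose together. Lyz2, a lysozyme of myeloid cells, was at 373, 351 and 439 CPM in wt CL and 5859, 4321 and 5012 CPM in ko CL, a log2 fold change of 3.71 ± 0.13 (adjusted p = 7.75e-10). Ctss, the cathepsin of antigen-presenting cells, was at 68.7, 48.3 and 54.0 CPM and at 1923, 1414 and 1484 CPM, or 28.2-fold higher. The pan-macrophage surface proteins Adgre1 and Cd68 rose by 4.16 ± 0.17 and 4.32 ± 0.19. All 23 markers were above the other 9 libraries in every ko CL library, compared with 19.2% of all genes tested. Under saline none of the 23 was called (median -0.05), and for all 23 the effect under CL was more positive than under saline.

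Genes of lipid-associated macrophages rose as well, some by more than any general marker. Of 24, 19 rose and 4 were called lower (median 2.88). Gpnmb, a glycoprotein of lipid-laden phagocytes, was at 43.6, 15.3 and 12.4 CPM in wt CL and 3901, 2329 and 3249 CPM in ko CL (7.06 ± 0.44, adjusted p = 3.34e-08). Spp1, osteopontin, was at 3.30, 0.82 and 0.76 CPM and at 254, 145 and 163 CPM. Trem2, the lipid-sensing receptor, was at 8.05, 4.67 and 3.56 CPM and at 345, 221 and 231 CPM (5.62 ± 0.26). For these 3 genes the lowest ko CL value exceeded the highest wt CL value more than 10-fold, and ko CL 1 was highest. Atp6v0d2 and Dcstamp, known from fused macrophages and osteoclasts, rose by 7.05 and 4.29, and Itgax, or CD11c, by 4.85. The 4 lower members were Fabp4, Lpl, Fabp5 and Acp5, of which Fabp4 and Lpl are also abundant in adipocytes. The call of Acp5 was lost with library size alone (-0.20, adjusted p = 0.125).

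Markers of resident perivascular macrophages split evenly: 8 of 18 rose, 8 were called lower and the median was 0.01, with a sign that depended on the library left out and on the scaling. Folr2, Selenop, Vsig4, Mrc1 and Stab1 rose by 1.998, 1.83, 1.71, 1.65 and 1.63. Lyve1, a hyaluronan receptor of perivascular macrophages, was at 34.8, 25.4 and 25.6 CPM in wt CL and 12.9, 10.5 and 15.3 CPM in ko CL (-1.16). Timd4, a receptor for dying cells, fell by 1.30 ± 0.16, and the lectins Cd209g and Cd209f by 1.32 and 1.13. None of the 18 was called under saline.

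Lysosomal genes rose broadly but not uniformly. Of 46 enzymes and proton pump subunits 38 rose and 4 were called lower (median 0.89). With library size alone all 46 were called higher, so the 4 lower calls (Smpd1, Atp6v1e1, Atp6v1h and Atp6v1g1, from -0.22 to -0.19) did not keep their sign. Those of Atp6v1e1, Atp6v1h and Atp6v1g1 were also lost without wt CL 1, wt CL 3 or ko CL 2, and those of Atp6v1h and Atp6v1g1 without ko CL 3. The cathepsins Ctsk, Ctsl and Ctsb rose by 3.52, 3.05 and 1.70. All 4 factors of the MiT/TFE family, which drive lysosomal genes, rose: Mitf from 14.5 ± 0.36 to 78.4 ± 19.3 CPM, Tfec by 2.56, Tfeb by 1.44 and Tfe3 by 0.79. These lists share members with the macrophage lists, and cells of all types carry lysosomes.

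**Figure D4:**
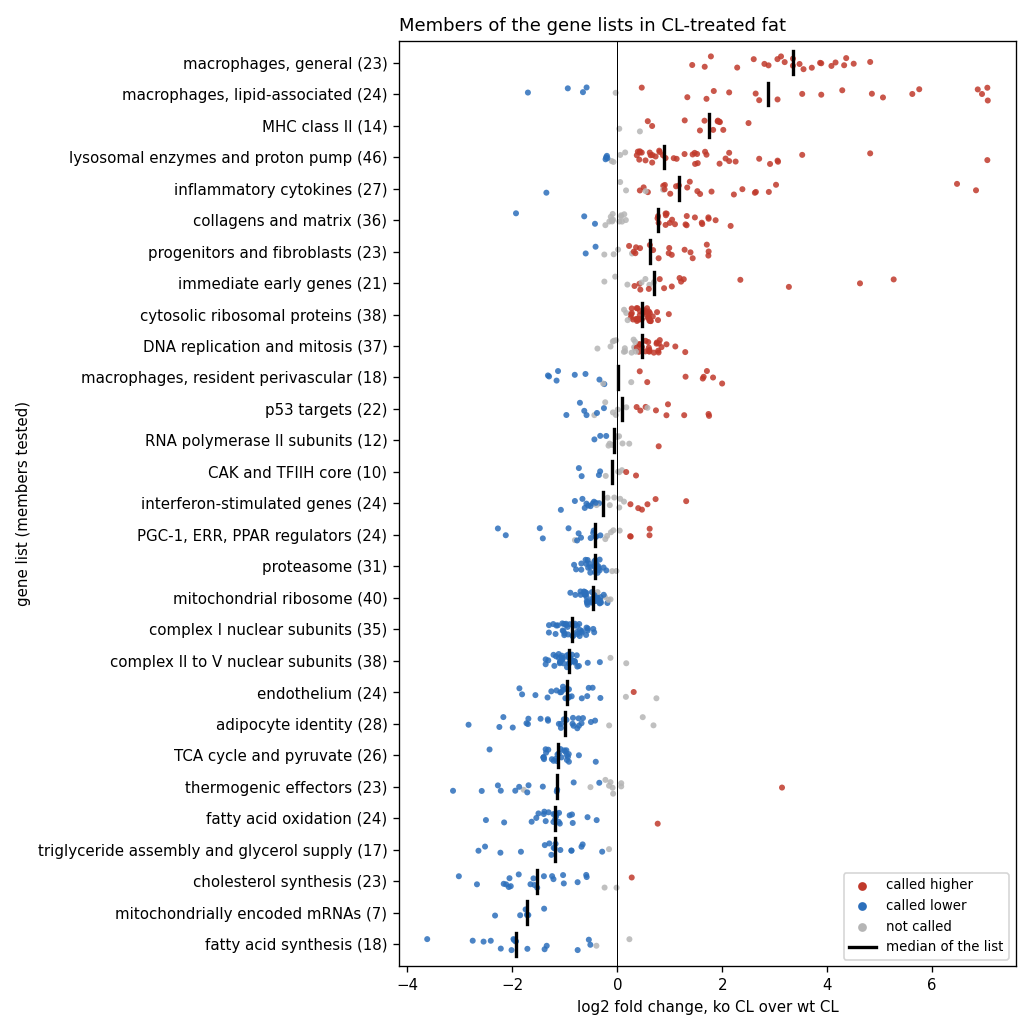
Log2 fold change of ko CL over wt CL for each tested member of 29 gene lists, red for called higher, blue for called lower, grey for not called, with a black bar at the list's median. The medians run from 3.35 for general macrophage markers to -1.94 for fatty acid synthesis; with library size alone the medians of the TFIIH, polymerase II and interferon lists turn positive and those of the lists below zero rise.

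Antigen presentation and complement rose. Of 14 genes in the MHC class II list 12 rose and none fell (median 1.74). Besides H2 genes this list holds Cd74, the regulators Ciita and Rfx5 and the costimulatory ligands Cd80 and Cd86. Ciita, the master activator of the class, rose by 2.50 ± 0.18, from 10.8 to 61.1 CPM, and H2-Aa from 230 ± 18.3 to 887 ± 248 CPM. Of 19 complement genes 13 rose and 2 fell (median 1.08): the receptor C3ar1 rose from 21.4 ± 3.21 to 426 ± 95.7 CPM and the C1q chains C1qa, C1qb and C1qc by 1.92, 2.98 and 2.52, while the adipocyte-derived Cfd and the regulator Cd59a fell. Properdin, Cfp, rose by 1.61 and was lower under saline by 0.35.

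Chemokine and cytokine genes rose more often than they fell, most at low levels. Of 28 chemokines and receptors 16 rose and 2 fell (median 0.98). Ccl9 and Ccl6 rose by 3.62 and 2.83, and Cxcl16 from 7.52 ± 0.56 to 48.3 ± 3.69 CPM. Cxcl9, which interferon gamma induces, fell from 45.6 ± 4.24 to 15.7 ± 1.02 CPM. Ccl2, which attracts monocytes, was not called, at 6.19 ± 0.67 and 4.95 ± 0.35 CPM, with a sign that turned with library size alone. Of 27 cytokine genes and receptors 22 rose and 1 fell (median 1.17). Il1rn, the antagonist of the IL-1 receptor, rose from 0.94 ± 0.43 to 83.3 ± 28.2 CPM, whereas Il1b was not called at 0.50 ± 0.05 and 0.93 ± 0.13 CPM. Il1a had 0 counts in wt CL and 45 in ko CL, at least 10.2-fold higher against a floor of 3 counts over the group. The member that fell was Nos2, the inducible nitric oxide synthase, by 1.35.

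Interferon-stimulated genes did not rise with the macrophage genes. Of 24, 11 were called lower and 6 higher (median -0.27, or 0.12 with library size alone and -0.17 without wt CL 2). Ifit3 fell from 30.6 ± 1.71 to 14.5 ± 2.33 CPM, whereas Oas1a rose by 1.31.

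Lymphocyte and granulocyte markers gave a mixed picture. Of 28 T and natural killer cell genes 8 rose and 3 fell (median 0.27, and 0.06 to 0.58 when 1 CL library was left out, lowest without ko CL 2 and highest without wt CL 3). With upper-quartile factors 5 rose. Among all genes tested, 27.6% were higher and 29.3% lower with TMM. Cd3d, Cd3e and Cd3g, the chains of the T-cell receptor complex that define T cells, were not called (-0.49, -0.36 and 0.01), with Cd3e at 0.03 with library size alone and Cd3g at -0.02 with upper-quartile factors. Trac fell by 1.12. Il7r, which macrophages and innate lymphoid cells can also express, rose from 2.71 ± 0.65 to 144 ± 39.8 CPM. Of 21 B and plasma cell genes 9 rose and none fell (median 0.53, or -0.13 without ko CL 2 and 0.84 without ko CL 1). Blnk and Cd22 rose by 4.51 and 4.20, whereas the defining B-cell gene Ms4a1 was not called (0.23). Without ko CL 2 it was called lower, at -1.06 (edgeR adjusted p = 0.014).

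Plasma cell transcripts rested largely on ko CL 2. Jchain, the joining chain of secreted antibody, was at 7.32, 15.7 and 13.5 CPM in wt CL and 29.97, 314 and 85.9 CPM in ko CL. Ighm was at 201, 155 and 174 CPM and at 407, 2575 and 460 CPM. Their log2 fold changes were 3.56 and 2.70, and without ko CL 2 they were 2.24 (adjusted p = 0.000382) and 1.29 (adjusted p = 6.6e-05). Among 108 immunoglobulin genes tested, 81 were higher in ko CL and none lower, with a summed level of 246 to 269 CPM in wt CL and of 577, 3939 and 958 CPM in ko CL 1 to 3. Under saline the same sum was 622 to 985 CPM in both genotypes, so ko CL 1 lay below the saline libraries and ko CL 2 above them. Of 16 genes of neutrophils, mast cells and eosinophils 12 rose (median 1.40): the mast cell proteases Cma1 and Cpa3 rose by 2.02 and 1.77 and the neutrophil receptor Csf3r from 5.55 ± 0.27 to 44.4 ± 3.26 CPM, while the mast cell receptor Kit, which other stromal cells also carry, fell by 1.45.

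Stromal compartments diverged: fibroblast genes were higher and vascular genes lower. Of 36 collagens and matrix genes 20 rose and 3 were called lower (median 0.78). Col3a1 was at 1219, 992 and 901 CPM in wt CL and 3564, 2788 and 3204 CPM in ko CL (1.62 ± 0.16, adjusted p = 2.24e-06). Col1a1 rose from 108 ± 32.3 to 482 ± 46.8 CPM, and Lum and Postn by 1.74 and 1.61. The basement membrane collagens Col4a1 and Col4a2 were not called (-0.23 and -0.10, or 0.16 and 0.28 with library size alone), and the matricellular protein Tnc fell by 1.93.

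Of 23 progenitor and fibroblast genes 17 rose and 2 were called lower (median 0.62), with Pdgfra, the receptor that marks fat progenitors, at 68.8 ± 7.00 and 186 ± 11.6 CPM. Of 22 metalloproteinases and inhibitors 12 rose and 4 were called lower (median 1.04). Mmp12, the elastase of macrophages, rose from 10.1 ± 3.69 to 545 ± 173 CPM, Adam8 by 5.32 and Mmp2, a gelatinase of fibroblasts, from 70.9 ± 9.42 to 265 ± 3.04 CPM. Of 18 mesothelial genes 9 rose and none fell (median 0.49), Wt1 by 1.09 ± 0.16. Secreted Wnt inhibitors such as Sfrp1, Sfrp2 and Dkk3 rose by 1.98, 1.16 and 1.15, within a list of 17 of which 8 rose and 2 fell (median 0.77).

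Of 24 endothelial genes 21 fell and 1 rose (median -0.96). Gpihbp1, which anchors lipoprotein lipase in capillaries, was at 156, 183 and 171 CPM in wt CL and 48.8, 63.9 and 60.1 CPM in ko CL (-1.56 ± 0.09, adjusted p = 2.17e-08). Cldn5, of tight junctions, fell by 1.87, the nitric oxide synthase Nos3 by 1.81, the endothelial cadherin Cdh5 by 1.26 and the growth factor Vegfa, which adipocytes also make, by 1.33. The exception was Vwf, which was called higher by 0.31, a call that was lost without wt CL 2, wt CL 3, ko CL 1 or ko CL 2 (adjusted p = 0.0544 to 0.118). In 16 of the 24 the ko CL libraries lay below all other 9, compared with 15.2% of all genes tested, and the summed level was 2568 to 3023 CPM in wt CL, 1215 to 1531 in ko CL and 1879 to 1993 in the knockout under saline. Of 17 pericyte and smooth muscle genes 9 fell (median -0.54). The 9 included the pericyte genes Rgs5 (-1.34 ± 0.17) and Kcnj8 (-1.16). The contractile genes Acta2, Tagln and Myh11 were among the 8 not called (0.23, 0.06 and -0.05, with Myh11 at 0.34 with library size alone).

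Proliferation genes were higher rather than lower. Of 37 replication and mitosis genes 23 rose and none fell (median 0.47). Pcna, the replication clamp, rose from 43.0 ± 1.77 to 92.5 ± 19.8 CPM, Cenpa by 1.29 and Mki67 from 55.5 ± 0.95 to 80.6 ± 12.1 CPM, though without ko CL 1 the call for Mki67 was lost (adjusted p = 0.0537). Cdk1 and Cdk2, the kinases that Cdk7 activates, were not called (0.27 and -0.09, with Cdk2 at 0.30 with library size alone). In 27 of the 37 genes ko CL was above all other 9 libraries, compared with 19.2% of all genes tested. Under saline 2 were called higher, compared with 7.99%. The cells in which these transcripts were made cannot be told from bulk tissue.

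Immediate early genes, the first to respond to signals, rose in 14 of 21 cases with none lower (median 0.70). Atf3 was at 7.04, 4.40 and 4.53 CPM in wt CL and 282, 153 and 178 CPM in ko CL (5.27 ± 0.24, adjusted p = 2.71e-09). Egr2, Fos and Junb rose by 4.63, 3.27 and 2.35. Members of the integrated stress and unfolded protein lists parted: 13 of 27 rose and 8 fell (median 0.08, or 0.30 without wt CL 1 and 0.21 without ko CL 2). The chaperones of the endoplasmic reticulum, such as Calr (0.89 ± 0.08) and Pdia4 (0.77 ± 0.07), rose, whereas the amino acid synthesis genes Asns and Psat1 fell by 1.84 and 0.78. Atf4 was not called (0.02, or -0.02 with upper-quartile factors).

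Targets of p53 showed no common direction under CL: 9 of 22 were called higher and 6 lower (median 0.09). Sesn1 rose by 1.75 and Plk2 by 1.28, and Phlda3 and the death receptor Fas fell by 0.97 and 0.71. Cdkn1a, the cell cycle inhibitor p21, was not called under CL, at 70.8 ± 6.40 and 79.8 ± 3.76 CPM, although it was higher in the knockout under saline by 1.501. The difference of -1.33 between both effects was called (adjusted p = 3.85e-06). Under saline 9 of the 22 were called higher, compared with 7.99% of all genes tested, and none lower. Mdm2, which p53 induces, rose under both, by 0.54 and 0.48.

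Among 23 cell death genes 10 rose and 5 were called lower (median 0.17, or 0.28 without wt CL 3): the gasdermin of pyroptosis in macrophages, Gsdmd, rose by 1.46 and the proapoptotic Bcl2l11 by 2.02, whereas Gsdme fell by 1.21. Of 20 antioxidant genes 10 were called lower and 4 higher (median -0.35, or 0.04 with library size alone). Catalase, Cat, fell from 1853 ± 23.2 to 625 ± 97.5 CPM and Sod1 and Sod3 by 0.96 each, while haem oxygenase Hmox1 rose by 1.47. Ftl1, the ferritin light chain, rose from 782 ± 96.3 to 2119 ± 195 CPM and was lower under saline by 0.53; its many pseudogenes make the level uncertain. Of 18 clock genes at this single time of day, 8 were called lower and 1 higher (median -0.22, or 0.17 with library size alone), with the repressor Nr1d1 at -1.36 ± 0.19 and Per2 at 0.50 ± 0.15 (0.31 without wt CL 3).

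Among protein-coding genes with at least 5 CPM in 1 group and no overlap between libraries, the largest increase was in Hmga2, a chromatin protein of growing and mesenchymal cells. It had 0 counts in all wt CL libraries and 877 in ko CL, at 14.97, 6.11 and 11.3 CPM, at least 199-fold higher against a floor of 3 counts over the group. Vsig8, an immunoglobulin-domain protein, was at 0.61, 0.16 and 0.15 CPM in wt CL and 66.2, 26.8 and 66.0 CPM in ko CL (7.42 ± 0.53). Gpnmb, Atp6v0d2, Tm4sf19 (6.95) and Spp1 of the lipid-associated macrophage list were among the other 13, as were Rnf128 (6.89), Myh15 (6.84), the coagulation factor F7 (6.49), Il1rn, Rgs1 (6.30), Npas4 (6.25), Creg2, Stra6l and Olfr111. Rnf128 and Creg2 were also higher under saline, by 2.31 and 2.14, whereas Hmga2, Vsig8, Gpnmb, Spp1 and F7 were not called there. All 15 were above every other library of the series in ko CL, compared with 19.2% of all genes tested. The rule that chose these 15 already required ko CL above every wt CL library.

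The largest decrease was in Acsm3, a mitochondrial acyl-CoA synthetase, which fell from 37.2 ± 8.35 to 1.69 ± 0.23 CPM (-4.45 ± 0.21, adjusted p = 3.14e-09) and was lower under saline too, by 2.81. Adam2, Golga7b, Acss2, the isomerase Eci3 (-3.50 ± 0.16), Lrtm1, Cldn22, Rgs7, Chrna2, Cidea, Dcst1, Alb, Insig1, Tlcd2 and Tmem56 followed. Chrna2, a nicotinic receptor subunit known from beige adipocytes, was at 6.54, 7.61 and 7.18 CPM in wt CL and 0.69, 1.14 and 0.56 CPM in ko CL (-3.13 ± 0.27). It was higher in the knockout under saline, by 1.10, and the difference between both effects was -4.23 (adjusted p = 1.35e-06).

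Set beside saline, the genotype difference under CL was far wider. Under saline 1323 genes (7.99%) were higher and 1068 (6.45%) lower in the knockout; these libraries are separate from the CL libraries. Of the 4561 genes higher under CL, 325 were also higher under saline, 153 lower and 4083 not called. Of the 4847 lower, 673 were also lower, 273 higher and 3901 not called. Tested directly, the effect under CL was more positive than under saline for 3607 genes (21.8%) and more negative for 3903 (23.6%). For 3289 of the higher and 3406 of the lower genes this difference was called.

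**Figure D5:**
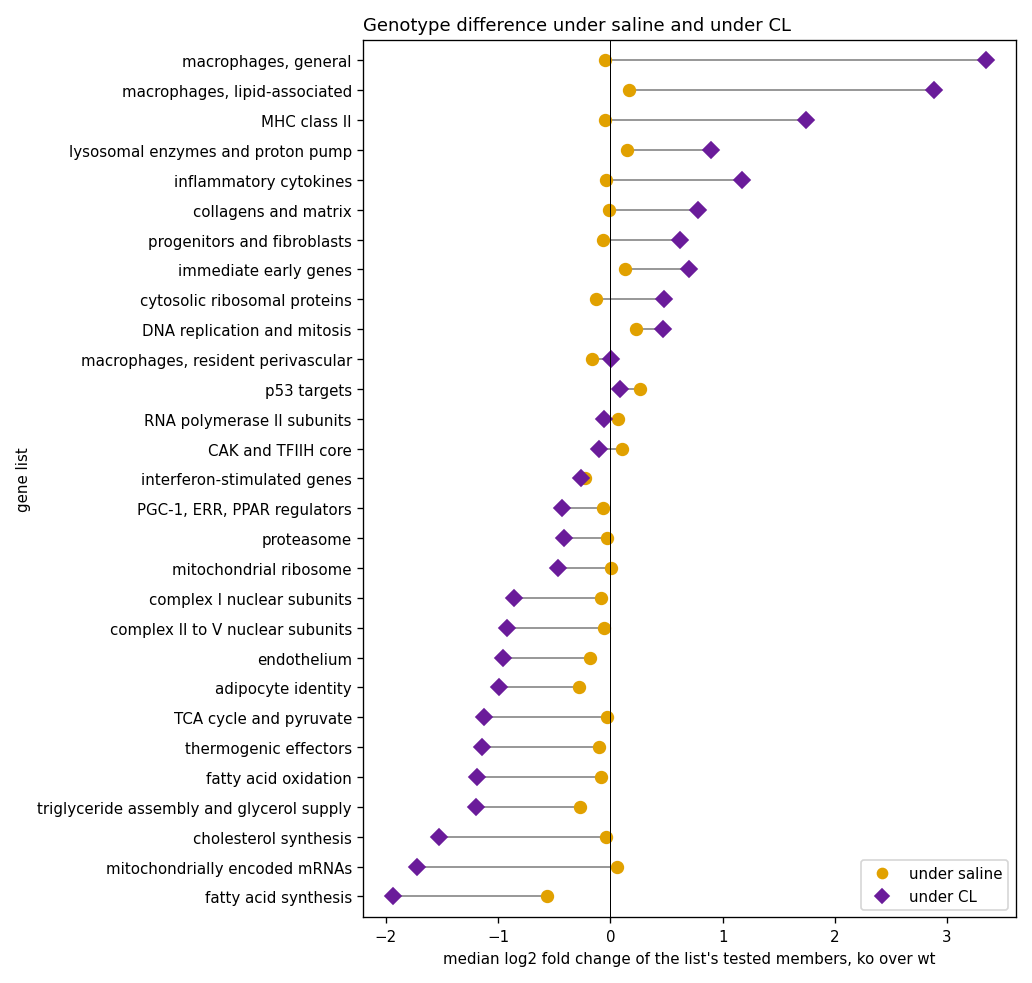
Median log2 fold change of knockout over wild type for the tested members of 29 gene lists, circles under saline and diamonds under CL. General macrophage markers lie at -0.05 under saline and 3.35 under CL, and mitochondrially encoded mRNAs at 0.06 and -1.72. The polymerase II, TFIIH and interferon medians under CL are negative with TMM and positive with library size alone.

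Of 65 genes tested within 5 Mb of Cdk7, 24 were higher and 18 lower under CL (64.6% against 56.8% of all genes). Under saline 8 of them, or 12.3%, were called, where 7.99% of all genes were higher and 6.45% lower. By gene type, 75.0% of immunoglobulin genes were called higher, compared with 28.8% of the 14334 protein-coding genes, and antisense transcripts and lincRNAs were called lower more often than higher (26.0% against 14.9%, and 26.7% against 19.8%). The medians of antisense transcripts and lincRNAs were -0.24 and -0.14, within the shift of 0.39 that scaling by library size alone brought. Gene types were not counted with that scaling. The median SD of a gene between libraries was 0.12 in wt CL and 0.14 in ko CL on the log2 scale. Over the counts of all genes the ko CL libraries differed more from each other: divided by its degrees of freedom, the chi-square of a pair was 7.08 to 10.3 within wt CL, 13.2 between ko CL 2 and ko CL 3, and 58.9 and 39.5 between ko CL 1 and these 2.

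Markers of other tissues were few. Of 17 genes of ciliated and duct epithelium 4 were called higher, compared with 27.6% of all genes tested. The list's median was 3.02, but 1.42 without ko CL 2 and 0.09 with the 6 CL libraries alone. Those fits filtered low counts anew, so their medians cover only the members that passed the filter there. Its sum was 13.7 to 15.7 CPM in wt CL and 15.8 to 27.8 CPM in ko CL, below the 124 to 160 CPM of the knockout under saline. Epcam was at 3 counts in wt CL and 72 in ko CL, a ratio of 16.4 with an exact counting interval of 5.38 to 81.3. That interval leaves out the spread between libraries. The edgeR call of Epcam was lost without wt CL 1, wt CL 2, wt CL 3 or ko CL 2 (adjusted p = 0.0533 to 0.122). None of 6 erythroid genes and neither of 2 genes of epididymis and testis was called. Of those 2, Adam7 had 0 counts in wt CL and 62 in ko CL. That is at least 14.1-fold higher against a floor of 3 counts over the group, which covers counting error only. The ovarian and uterine list had 4 of 6 genes called higher at a summed level of at most 15.6 CPM. Of 11 skeletal muscle genes 4 were called higher and 2 lower (median -0.36, or 0.02 with library size alone and -0.07 without ko CL 1), and their sum was carried by Myl1, at 255 and 59.3 CPM on average. Of 8 nerve and Schwann cell genes 3 were called higher and 2 lower.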

How the data were processed

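RNA from mouse perigonadal fat was sequenced in 12 libraries, 3 per group. The authors aligned reads with STAR to GRCm38 and counted them per gene with HTSeq, per the submitters' processing notes; neither versions nor an annotation release are named there. The deposited values are raw counts per Ensembl gene, without normalization. The 5 summary lines of each table, which name no gene, held 16.5% to 17.2% of reads in wt CL and 12.5% to 13.2% in ko CL and were left out. Gene symbols and positions came from GENCODE M21, which matched 53274 of 53379 identifiers. Groups follow the sample titles.

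All 12 libraries were fitted together with edgeR 4.0.16 in R 4.3.3: filterByExpr with a minimum count of 10, TMM factors, 1 coefficient per group and quasi-likelihood F tests, with Benjamini-Hochberg adjustment over all genes tested and a threshold of 0.05. The common biological coefficient of variation was 11.5%, with 8 residual degrees of freedom. SE is the log2 fold change divided by the square root of F, and levels are TMM-scaled CPM. The test was checked on simulated counts in which few genes differed, as many up as down. That check therefore does not cover the choice of scaling. Alternatives were other scalings, no filter, the 6 CL libraries alone, DESeq2 1.42.0, the replicate number as a block and leaving out each CL library in turn. Fits that left out libraries filtered low counts anew, so their list medians can rest on fewer members. The difference between the genotype effects under CL and saline was tested as a contrast. Exact counting intervals and floors cover counting error only. Promoter windows are RefSeq's, for 12160 genes.

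The comparison, the gene lists and the tests were chosen with earlier results of these data known. Named genes are the 15 largest increases and decreases among called protein-coding genes with a mean of at least 5 CPM in 1 group and no overlap between groups, the 10 largest gains and losses of CPM, a fixed set of 45 genes, and, per list, at most 5 tested members that ranked first by adjusted p. Members that go against their list are also named. Some further list members were named after their values were seen. Some genes the rule would name are not reported here, and they remain in the list counts and medians.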

Additional observations from a re-analysis of the deposited data

Results flagged for a closer look

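The genotype effect under CL differed from that under saline for many genes, by a test of the difference itself: it was more positive for 3607 genes and more negative for 3903. For 153 genes the knockout was called higher under CL and lower under saline, and for 273 it was called lower under CL and higher under saline, with the difference called. Among the genes named above, the difference between the effects (CL minus saline, log2) was positive for Lrp1 at 2.20, Adcy3 at 2.04, Cfp at 1.96, Ftl1 at 1.96 and Plin3 at 0.74; each was called higher under CL and lower under saline. It was negative for Chrna2 at -4.23, Mut at -1.63, Mgll at -1.25, Gtf2h5 at -0.95, Gtf2h3 at -0.63 and Smpd1 at -0.56, each called lower under CL and higher under saline, although Gtf2h3 and Smpd1 turned positive under CL with library size alone.

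Reads outside the gene counts also differed between the CL groups. Reads that fell in no annotated gene made up 2.05% on average in ko CL and 1.85% in wt CL, and reads that fell in more than 1 gene 2.82% and 2.18%, with no overlap between the groups in either class.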

How the results depend on the processing

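Scaling by library size alone, which leaves the difference in library make-up uncorrected, moved the counts most: 8667 genes were called higher and 2237 lower under CL. With a change of at least 2-fold these counts were 3168 and 629. The genotype effect was then more negative under CL than under saline for 2267 genes, and under saline 4239 genes were called, 3733 higher and 506 lower (these saline values were chosen after seeing the data). Of the 9408 calls under CL, 6798 kept their direction and call with library size alone and 239 were called the other way. The other scalings, no filter, the 6 CL libraries alone and DESeq2 gave 8784 to 9483 calls, within 1.5 times, and leaving out 1 CL library gave 8455 to 9006.

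With library size alone these medians turned positive: TFIIH 0.28, transcription kinases 0.36, polymerase II 0.33, adrenergic 0.10, adipokines 0.062, interferon 0.12, antioxidant 0.041, clock 0.17 and skeletal muscle 0.023 (0.016 with the 6 CL libraries alone). So did Atp5g2 0.25, Atp6v1e1 0.17, Atp6v1g1 0.20, Atp6v1h 0.19, Ccl2 0.062, Cd36 0.23, Cd3e 0.029, Cdk12 0.25, Cdk13 0.32, Cdk2 0.30, Col4a1 0.16, Col4a2 0.28, Esrra 0.19, Gk 0.23, Gtf2h3 0.058, Mnat1 0.036, Myh11 0.34, Plin2 0.36, Prdm16 0.042 and Smpd1 0.16. Upper-quartile factors turned resident macrophages to -0.027, Atf4 to -0.022 and Cd3g to -0.022.

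Leaving out 1 library in turn, the resident macrophage median ran from -0.08 to 0.172 (negative without wt CL 2, wt CL 3, ko CL 2 or ko CL 3) and the B cell median from -0.129 to 0.843 (negative without ko CL 2). Signs turned without ko CL 1 for Atf4 (-0.005 to 0.044), Cd3e (-0.975 to 0.018), Gk (-0.364 to 0.032), Mcoln1 (-0.036 to 0.107) and Myh11 (-0.135 to 0.063), and without ko CL 2 for Ms4a1 (-1.058 to 0.63). They turned without wt CL 1 or ko CL 2 for Cd3g (-0.38 to 0.376), without wt CL 3 or ko CL 2 for Plin2 (-0.169 to 0.139) and without wt CL 3 or ko CL 3 for Fgf21 (-0.323 to 0.322). None of these 9 genes was called with all libraries. Calls that are not made with all libraries appeared for Fads2 and Nnat without wt CL 1, Fads1 and Esrra without wt CL 3, Nnat without ko CL 1 and Col4a1 without ko CL 3.

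The replicate numbers do not pair the samples by the labels; same-numbered CL libraries deviated together with r of 0.109, 0.085 and 0.064, and each library correlated best with its own number. With the replicate block 9107 genes were called, 4391 higher and 4716 lower, with 1986 and 1373 past 2-fold. The difference was called for 7147 genes (3429 more positive, 3718 more negative), 2088 genes were called under saline, and Cdk7 was at -0.68. Low counts limit lists such as cilia and duct epithelium, whose median ran from 1.419 to 3.492 when 1 CL library was left out.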
